A study of Mus musculus with 4 samples.

Results

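The 29 genes described here make cholesterol or take up, bind, store and export lipid. They were the rows of the feature list whose symbol equalled one of 29 listed symbols, out of 32285 genes listed in each of 4 count matrices, and all 29 were found. Of these, 18 encode steps or regulators of sterol synthesis and 11 handle lipid. They were followed in single immune cells of Ndufa4-deficient (KO) and wild-type (WT) mice. Ndufa4 encodes a small subunit of cytochrome c oxidase, the last enzyme of the respiratory chain.

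The mice, C57BL/6 males of 8 weeks, had been given B16-F10 cells, a melanoma line of the same strain, under the skin 18 days before cells were taken. The groups were the KO tumour, the WT tumour, the KO spleen and the WT spleen, each 1 library of cells pooled from several mice (3 per genotype per the series text, 3 to 4 per the protocol). The tumour sort kept CD45+ leukocytes, whereas in the spleen the myeloid marker CD11b was required as well. The cell type or promoter in which the deletion acts, and whether control mice were littermates, are not given in the sources used here. With 1 pooled library per group, no difference could be set against the spread between mice, and no test was made. Since the pools were not split by mouse, a difference between genotypes and a difference between pools cannot be told apart.

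Cells build cholesterol from acetyl units through the mevalonate steps, then through squalene to lanosterol and a series of trimming steps. When membrane sterol is scarce, the SREBP2 protein (gene Srebf2) is released and switches on most enzymes of this path, and INSIG1 holds it back when sterol is plentiful. Macrophages also take in lipid from dying cells, store it in droplets and pass it out through ABCA1 and ABCG1 to carriers such as apolipoprotein E. Macrophages rich in lipid in tumours are known for Trem2, Gpnmb, Fabp5 and Cd36.

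The promoter letters shown are those of Hmgcs1, Msmo1 and Srebf2, the 3 sterol synthesis members whose window held the letters TCACNCCA. They include the most upstream enzyme of the list and the regulator. The choice thus followed the letters and not the ratios. Idi1 and Cyp51, which lacked these letters in their window, were called lower in KO dendritic cells as well. RefSeq promoter windows (GRCm38.p6) were at hand for 21 of the 29 members. Capitals mark the sterol element letters TCACNCCA (its stricter form is TCACCCCAC) and the letters CCAAT, in either orientation, so that ATTGG is CCAAT on the other strand. The Hmgcs1 stretch is chr13:119690101-119690350 on the plus strand, the 250 bases before the RefSeq start. The Msmo1 window is chr8:64733730-64733759 on the minus strand, and the Srebf2 window is chr15:82147103-82147132 on the plus strand, both 30 bases long.
Hmgcs1: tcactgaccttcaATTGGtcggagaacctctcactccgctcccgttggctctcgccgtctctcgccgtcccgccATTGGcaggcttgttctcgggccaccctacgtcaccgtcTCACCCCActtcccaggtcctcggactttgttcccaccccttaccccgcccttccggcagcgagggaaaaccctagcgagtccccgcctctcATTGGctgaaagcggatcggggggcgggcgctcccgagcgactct
Msmo1: attcTCACTCCAtccgcgcagCCAATgact
Srebf2: accaTCACCCCAtgagccgcttcgcgcgcc
On both strands, TCACCCCAC lay in 0.466% of 27025 promoters of that window length and, among the members, in Hmgcs1. The looser TCACNCCA lay in 3.58% of all promoters and in 4 of 21 members, Hmgcs1, Msmo1, Srebf2 and Apoe. CCAAT lay in 34.5% of all promoters, in 14 of the 15 sterol synthesis members with a window and in 3 of the 6 lipid handling members. These are matches of letters in one window and do not show binding.

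The libraries held between 4798 and 8107 cell barcodes and between 46499361 and 63560706 UMIs (unique molecular identifiers, counted transcripts). Filters left 4656 KO and 4019 WT tumour cells and 6952 KO and 7530 WT spleen cells. The median kept tumour cell held 10534 UMIs in KO and 7502 UMIs in WT. Pairs of libraries shared 6 to 22 barcodes. Cells were gated by marker genes that include none of the 29. Left without a class were 8.31% of KO and 12.91% of WT tumour cells, and 9.23% of KO and 10.92% of WT spleen cells. These include the cells showing markers of a second lineage, which were left out as doublets and made up 3.07% of KO and 3.83% of WT tumour cells, and 3.98% of KO and 5.41% of WT spleen cells. Between 4.75% and 6.44% of the cells of a library lay near the gate's limit. Levels below are CPM, the UMIs of a gene per 1000000 UMIs summed over the cells of a class. Ratios are log2 KO over WT with an exact 95% interval in brackets that covers counting error only. A member was measured where both libraries together held at least 50 of its UMIs, and was called higher or lower where the libraries were at least 1.5-fold apart.

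Ndufa4 itself (chromosome 6, 11900292 to 11907497, minus strand) was close to absent in the KO libraries. Tumour phagocytes held 6.56 CPM in KO (89 UMIs) and 275 CPM in WT (5107 UMIs), and tumour dendritic cells 7.63 CPM in KO and 231 CPM in WT. Spleen phagocytes held 0.681 CPM in KO (8 UMIs) and 270 CPM in WT (7393 UMIs). The residue in the KO tumour was not assigned to a source.

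Tumour mononuclear phagocytes, the monocytes and macrophages of the tumour, held less transcript of the lipid handling genes in KO than in WT, while the sterol synthesis genes were close to even. Cd36, Gpnmb, Trem2, Fabp5, Abca1 and Fabp4 had log2 ratios of −1.16 or lower, from 940 KO and 1232 WT cells. Of 28 measured members, 1 was called higher in KO and 9 lower. Among all 10796 genes measured in these cells, 9.65% were called higher and 10.7% lower. The 9 lower members were 9 of the 10 measured handling genes, whose median log2 ratio was −1.17, whereas none of the 18 sterol genes was lower and their median was 0.16. The median over all measured genes was 0.0035. Fewer cells of a phagocyte subset and less RNA per cell cannot be told apart in this sum, and the subsets follow below.

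Cd36, a scavenger receptor that takes up oxidised lipoprotein and fatty acids, stood at 95.6 CPM in KO and 359 CPM in WT, a log2 ratio of −1.91. Fabp5 and Fabp4 encode proteins that carry fatty acids inside the cell. Fabp5 stood at 471 CPM in KO and 1077 CPM in WT (−1.19), and Fabp4 at 25.3 CPM in KO and 56.7 CPM in WT (−1.16). Lpl, the lipase that frees fatty acids from lipoproteins, stood at 185 CPM in KO and 284 CPM in WT (−0.62). Thus all 4 uptake and binding genes were lower in the KO library. Plin2 coats lipid droplets and stood at 427 CPM in KO and 774 CPM in WT (−0.86 [−0.90, −0.81]). Trem2, a lipid-sensing receptor of macrophages, stood at 99.3 CPM in KO and 231 CPM in WT (−1.22). Gpnmb, a glycoprotein of lysosomes, stood at 74.7 CPM in KO and 198 CPM in WT (−1.41).

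The efflux genes were not all on the same side. Abca1, which loads cholesterol onto lipid-poor apolipoproteins, stood at 60.2 CPM in KO and 135 CPM in WT (−1.17 [−1.28, −1.05]). Abcg1, which passes cholesterol to formed lipoprotein particles, stood at 135 CPM in KO and 97.5 CPM in WT, a ratio of 0.47 [0.37, 0.56] that lay under the 1.5-fold call. Apoe, the apolipoprotein that carries lipid out of macrophages, stood at 2806 CPM in KO and 4209 CPM in WT (−0.59). Scd1, which desaturates fatty acids, had 10 UMIs in KO and 18 UMIs in WT phagocytes and was not measured there.

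Among the synthesis genes, Pmvk, the phosphomevalonate kinase, was the member called higher, with 64.9 CPM in KO and 39.3 CPM in WT (0.72 [0.58, 0.87]). The gene of the rate-setting reductase is not among the 29. Hmgcs1, which makes its substrate, stood at 65.6 CPM in KO and 56.1 CPM in WT (0.23). Srebf2 stood at 62.1 CPM in KO and 63.0 CPM in WT (−0.02 [−0.15, 0.11]), and Insig1 at 43.8 CPM in KO and 29.5 CPM in WT (0.57 [0.40, 0.74]). The other 14 sterol genes ran from −0.30 for Lss to 0.38 for Ebp.

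**Figure D1:**
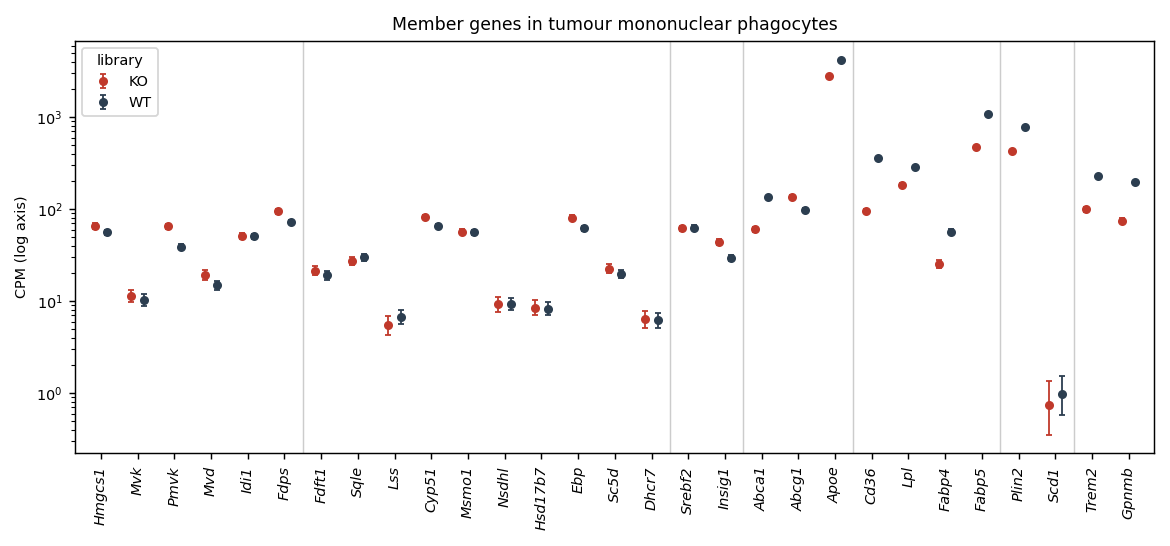
Levels of the 29 members in tumour mononuclear phagocytes, as CPM on a log axis, KO (red, left) beside WT (dark, right) for each gene, with exact Poisson 95% intervals and grey lines between roles. The sterol synthesis genes on the left lie side by side, while Cd36 at 95.6 CPM in KO and 359 CPM in WT and most genes to its right lie lower in KO; Scd1 had 10 UMIs in KO and 18 UMIs in WT.

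Markers of other cells also differed between the phagocytes of the libraries. T cell markers summed to 41.3 CPM in KO and 10.3 CPM in WT (6 of 6 genes detected in each), and NK cell markers to 32.2 CPM in KO and 5.65 CPM in WT (8 of 8 in each). Cell cycle genes summed to 44.2 CPM in KO and 122 CPM in WT (6 of 6 in each). Platelet markers summed to 3.32 CPM in KO, with Gp9, Gp1bb and Treml1 at 0, and to 175.5 CPM in WT, with Gp9 at 0. Platelets also carry CD36, but whether these transcripts came from platelets was not tested. Melanoma markers summed to 33.9 CPM in KO and 27.8 CPM in WT (6 of 6 in each), and adipocyte markers to 0.295 CPM in KO and 0.430 CPM in WT (2 of 5 in each, with Plin1 and Cidec at 0 in both). Without cells that held any melanoma marker UMI, the median of the handling genes was −1.04. Without cells that held any UMI of the neutrophil, T, NK or B cell markers, which left 87 KO and 213 WT phagocytes, the handling median was −0.97 and the sterol median 0.67, and 7 members were then higher. The share of all genes called in those cells was not worked out, so the 7 cannot be set against it. The part of the platelet marker and cell cycle transcripts in the ratios was not tested.

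The subsets made up different shares of the phagocytes. Arg1 phagocytes, gated on at least 3 UMIs of the arginase gene, numbered 70 in KO and 333 in WT, and Cxcl9 phagocytes, gated on that interferon-inducible chemokine gene, 287 in KO and 82 in WT. Phagocytes gated on Ccl8 or Vcam1 numbered 26 in KO and 113 in WT and were too few in KO to compare; in WT they held Apoe at 18530 CPM. With the KO subsets weighted to the WT mix, the median of the handling genes was −0.49 and that of the sterol genes −0.10. Of the 10 members called in the unweighted sum, 4 kept their call under that weighting. These were Cd36 (−1.32), Fabp4 (−1.15), Lpl (−0.80) and Trem2 (−0.62). Abca1 then stood at −0.30, Apoe at −0.13, Fabp5 at −0.54, Plin2 at −0.28 and Gpnmb at −0.43. The weighted values also called Lss (−0.65) and Nsdhl (−0.77) lower and Abcg1 (0.62) higher. The weighting gave the 26 KO cells gated on Ccl8 or Vcam1 the WT share of that subset. The weighted values, that of Apoe among them, therefore lean on those few cells. The 70 KO Arg1 cells also took their WT share, and they held Nsdhl at 1.77 CPM.

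Within Arg1 phagocytes the direction of Apoe was turned round. Apoe stood at 4654 CPM in KO and 2066 CPM in WT (1.17 [1.12, 1.22]), whereas in Cxcl9 phagocytes it stood at 2459 CPM in KO and 4452 CPM in WT (−0.86 [−0.90, −0.82]). In WT the Cxcl9 cells held more Apoe than the Arg1 cells, and in KO they held less. Of 23 measured members in Arg1 phagocytes, 5 were higher in KO and 2 lower, against 10.6% and 9.3% of all genes. Hmgcs1 stood at 51.5 CPM in KO and 26.9 CPM in WT (0.93 [0.47, 1.38]), and Fdps, which joins the isoprene units into farnesyl diphosphate, at 65.7 CPM in KO and 34.6 CPM in WT (0.93). Pmvk (0.85) and Abcg1 (0.83) were the other higher members. Cd36 stood at 267 CPM in KO and 658 CPM in WT (−1.30), and Fabp4 at 21.3 CPM in KO and 60.8 CPM in WT (−1.51). Platelet markers summed to 36.4 CPM in KO and 565 CPM in WT in these cells. Gp9, Gp1bb and Treml1 were at 0 in both libraries, so the sum came from Ppbp and Itga2b.

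In Cxcl9 phagocytes 1 of 27 measured members was higher in KO and 5 were lower, against 10.6% and 9.28% of all genes. Trem2 stood at 105 CPM in KO and 302.5 CPM in WT (−1.53 [−1.70, −1.35]), Cd36 at 55.9 CPM in KO and 141 CPM in WT (−1.33), and Abca1 at 35.2 CPM in KO and 64.6 CPM in WT (−0.88). Mvk, the mevalonate kinase, was the lower synthesis gene (−0.68, and −0.57 without the richest cell of each library). Insig1 was the higher member, with 59.0 CPM in KO and 29.7 CPM in WT (0.99 [0.56, 1.44]).

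In non-classical monocytes, which patrol vessels, 1 of 17 measured members was higher in KO (Pmvk, 0.85) and 4 were lower, against 6.69% and 6.63% of all genes. Cd36 stood at 361 CPM in KO and 614 CPM in WT (−0.77), and Fabp4 at 197 CPM in KO and 375 CPM in WT (−0.93). Abca1 (−0.91) and Plin2 (−0.59) were the other lower members. In phagocytes that fell in no named subset, 151 in KO and 426 in WT, 1 of 28 members was higher (Abcg1) and 9 were lower, against 10.9% and 9.02% of all genes. The lower members were Mvk, Idi1, Sqle, Lss, Cyp51, Nsdhl, Cd36, Lpl and Fabp4, with Lpl at 189 CPM in KO and 397 CPM in WT (−1.07).

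**Figure D2:**
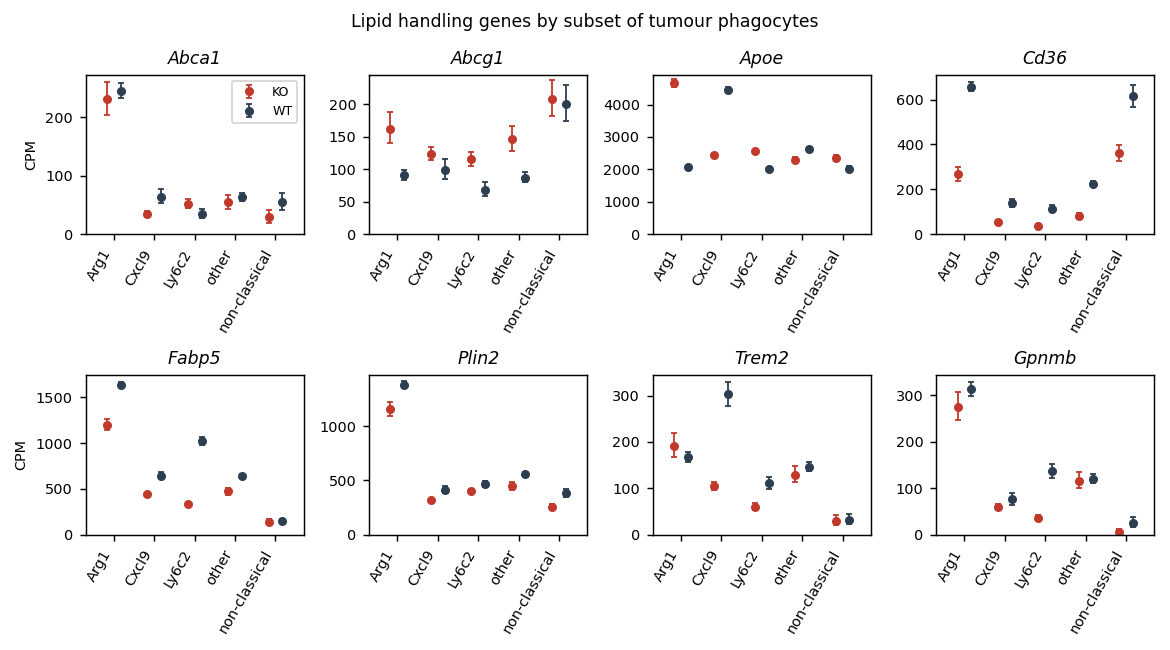
Levels of 8 lipid handling genes in 5 subsets of tumour phagocytes, as CPM on linear axes that start at 0, KO (red, left) beside WT (dark, right) with exact Poisson 95% intervals. Cd36 lies lower in KO in each of the 5 subsets, and Apoe lies higher in KO in Arg1 cells (4654 CPM in KO, 2066 CPM in WT) and lower in KO in Cxcl9 cells (2459 CPM in KO, 4452 CPM in WT).

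Ly6c2 monocytes held less transcript of the later sterol steps in KO. Ly6c2 marks the classical monocytes that enter tissue from blood. The gate took phagocytes with at least 3 Ly6c2 UMIs that passed no Arg1, Cxcl9, or Ccl8 or Vcam1 gate and were not non-classical. Trem2 was found, without thinning, in 34.8% of KO and 48.1% of WT cells of this tumour class. How far these cells had matured into macrophages was not tested. There were 287 KO and 156 WT cells, with median depths of 13995 UMIs in KO and 14592 UMIs in WT. Of 26 measured members, 1 was higher and 12 lower, against 6.12% and 4.81% of all genes. The 12 comprised 7 of the 16 measured sterol genes, whose median was −0.53, and 5 of the 10 measured handling genes, whose median was −0.55; the median of all genes was 0.0016. Of the 8 measured genes from squalene on, 5 were lower and the median was −0.88.

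Msmo1, which removes methyl groups at the sterol C4 position, stood at 47.5 CPM in KO and 95.4 CPM in WT (a ratio of 0.498, with a log2 interval of −1.29 to −0.73). Sqle, the epoxidase that commits squalene to sterols, stood at 24.1 CPM in KO and 43.1 CPM in WT (−0.84 [−1.25, −0.43]). Sc5d, a late desaturase, stood at 17.1 CPM in KO and 33.0 CPM in WT (−0.95 [−1.43, −0.47]). Hsd17b7 (−0.96) and Nsdhl (−0.93), both of the C4 demethylation complex, rested on 71 and 62 UMIs over both libraries. Earlier in the path, Hmgcs1 stood at 53.6 CPM in KO and 85.3 CPM in WT (−0.67 [−0.95, −0.39]). Idi1, which isomerises the isoprene unit, stood at 46.1 CPM in KO and 74.0 CPM in WT (−0.68 [−0.98, −0.38]). Pmvk (0.25), Mvd (0.13), Mvk (0.52) and Ebp (0.10) lay above 0 and under the call. Hence the path was not lower as a whole. Srebf2 stood at 55.5 CPM in KO and 82.4 CPM in WT (−0.57 [−0.85, −0.29]), just under the call.

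Among the handling genes of the same monocytes, Gpnmb stood at 36.3 CPM in KO and 136 CPM in WT (−1.91 [−2.20, −1.63]) and Fabp5 at 338 CPM in KO and 1021 CPM in WT (−1.59). A single KO cell held 62 of the 155 KO UMIs of Gpnmb, and a single WT cell 72 of 326. Without them the Gpnmb ratio was −2.31. With cells thinned to 2000 UMIs, Gpnmb was found in 3.9% of KO (1.97% to 6.90%) and 9.6% of WT cells (5.48% to 15.4%). Cd36 stood at 38.6 CPM in KO and 114 CPM in WT (−1.56 [−1.85, −1.28]). Lpl (−0.88) and Trem2 (−0.89) were also lower. Abcg1 stood at 115 CPM in KO and 68.6 CPM in WT (0.75 [0.49, 1.01]), and Abca1 at 52.4 CPM in KO and 35.6 CPM in WT (0.56 [0.19, 0.94]). Melanoma markers summed to 16.6 CPM in KO (5 of 6 genes, Tyr at 0) and 15.9 CPM in WT (5 of 6, Slc45a2 at 0). Platelet markers summed to 0.468 CPM in KO (2 of 5) and 3.76 CPM in WT (2 of 5), and cell cycle genes to 26.9 CPM in KO and 15.9 CPM in WT (6 of 6 in each). T cell markers were higher in KO, at 44.5 CPM against 14.6 CPM in WT, and their part was not tested.

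Counted over cells, each thinned to 2000 UMIs, Msmo1 was found in 7.47% of KO and 17.3% of WT Ly6c2 monocytes (exact intervals 4.69% to 11.2% and 11.7% to 24.2%). Without thinning the shares were 32.4% in KO and 48.7% in WT. Abcg1 was found in 17.4% of KO and 8.33% of WT cells (13.2% to 22.4% and 4.51% to 13.8%), and without thinning in 62.7% of KO and 39.7% of WT cells. Cd36 was found in 4.63% of KO and 13.5% of WT Ly6c2 monocytes, and without thinning in 15.7% of KO and 28.2% of WT cells. In CD8 T cells Cd36 was found in 0.233% of 1285 KO and 0.680% of 441 WT thinned cells. Thinning left out 6 KO and 0 WT monocytes. The Cd36 transcripts were concentrated, since the 5% of cells richest in it held 73.3% of its UMIs in KO and 64.5% in WT.

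Dendritic cells, the antigen-presenting cells that start T cell responses, also held less sterol synthesis transcript in KO. Of 26 measured members in 289 KO and 208 WT cells, 2 were higher and 12 lower, against 5.89% and 5.54% of all genes. The sterol genes, all 18 of which were measured, had 9 lower and none higher, and their median was −0.63, whereas all genes had a median of 0.0138. The 8 measured handling genes had a median of −0.09, with 2 higher and 3 lower.

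Hmgcs1 stood at 113 CPM in KO and 199.5 CPM in WT (−0.82 [−0.97, −0.67]). Cyp51, which removes the C14 methyl group of lanosterol, stood at 98.5 CPM in KO and 173 CPM in WT (−0.81 [−0.97, −0.65]). Msmo1 stood at 63.0 CPM in KO and 111 CPM in WT (−0.82 [−1.02, −0.62]). Lss, the cyclase that closes the sterol rings, was lowest of the 18 in ratio (−1.06 [−1.61, −0.53]), and Mvd, Idi1, Fdft1, Sqle and Dhcr7 were the other lower genes, between −0.84 and −0.71. Srebf2 stood at 121 CPM in KO and 177 CPM in WT (−0.56 [−0.71, −0.40]). Pmvk did not follow, with 181 CPM in KO and 178 CPM in WT (0.02 [−0.11, 0.16]).

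Type 2 dendritic cells, which mainly prime CD4 T cells, had 10 of 18 sterol genes lower and a sterol median of −0.68; over all 22 measured members 2 were higher and 11 lower, against 7.02% and 6.98% of all genes. One of the higher members was Apoe, of whose 80 KO UMIs a single cell held 60; without the richest cell of each library it stood at 13.7 CPM in KO and 18.6 CPM in WT (−0.44). Sqle stood there at 46.6 CPM in KO and 106 CPM in WT (−1.19 [−1.60, −0.78]). Type 1 dendritic cells, which cross-present to CD8 T cells, had 3 of 23 members higher and 2 lower (Lss and Msmo1), against 10.4% and 4.39% of all genes, and a sterol median of −0.49. Migratory dendritic cells, on their way to lymph nodes, had 1 of 18 members higher and 8 lower, against 7.84% and 6.35% of all genes, with Cyp51 at 65.9 CPM in KO and 134 CPM in WT (−1.02 [−1.42, −0.64]). Whether these dendritic cell types differ from each other in the ratio was not tested. Cell cycle genes summed to 275 CPM in KO and 163 CPM in WT dendritic cells, and to 498 CPM in KO and 206 CPM in WT type 1 cells (6 of 6 genes in each), and their part was not tested.

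The handling genes of dendritic cells had large ratios on few cells. Fabp4 and Lpl held 5 UMIs each in KO, against 66 and 69 UMIs in WT. A single WT cell held 35 of the 69 Lpl UMIs, and without the richest cell of each library the Lpl ratio was −3.93. Of the 66 WT Fabp4 UMIs, 65 came from migratory cells, where a single cell held 29. Fabp5 stood at 41.4 CPM in KO and 288 CPM in WT type 2 dendritic cells (−2.80 [−3.20, −2.42]). With cells thinned to 2000 UMIs, it was found in 4.82% of 83 KO and 17.5% of 80 WT type 2 cells (24.1% of KO and 51.2% of WT cells unthinned). A single cell held 21 of its 64 KO UMIs, and another 115 of its 474 WT UMIs; without them the ratio was −2.97. Abcg1 stood at 57.5 CPM in KO and 25.0 CPM in WT dendritic cells (1.20 [0.88, 1.53]) and at 84.8 CPM in KO and 27.3 CPM in WT type 2 cells (1.64 [1.14, 2.16]). Gpnmb stood at 12.2 CPM in KO and 4.72 CPM in WT dendritic cells (1.37), and at 20.9 CPM in KO and 1.38 CPM in WT type 1 cells, where WT held 2 UMIs (3.92, with an interval of 1.998 to 7.001). A single KO type 1 cell held 52 of the 55 KO UMIs of Gpnmb there, which left 3 in KO and 1 in WT without the richest cells. Without the richest cell of each library, Gpnmb stood at 3.09 CPM in KO and 3.41 CPM in WT dendritic cells (−0.14). Gpnmb is also a pigment cell gene, at 1656 CPM in the 43 WT tumour barcodes gated as melanoma. Melanoma markers summed to 55.4 CPM in KO and 16.3 CPM in WT dendritic cells (6 of 6 in each), and to 79.6 CPM in KO (6 of 6) and 15.2 CPM in WT type 1 cells (4 of 6, Tyr and Slc45a2 at 0). Their part in the Gpnmb ratio was not tested.

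Plasmacytoid dendritic cells, the main makers of type I interferon, held the highest levels of most synthesis genes. Among the tumour classes with at least 50 cells, 16 of the 18 sterol genes peaked there in KO and 14 in WT. Of 20 measured members in 87 KO and 74 WT cells, 1 was higher and 9 lower, against 7.37% and 5.45% of all genes, and the 9 were all sterol genes, whose median was −0.57. Hmgcs1 stood at 270 CPM in KO and 618 CPM in WT (−1.19 [−1.40, −0.99]), and Msmo1 at 223 CPM in KO and 398 CPM in WT (−0.84 [−1.08, −0.60]). Insig1 stood at 128 CPM in KO and 218 CPM in WT (−0.77 [−1.09, −0.45]). Insig1 is itself switched on by SREBP2. Idi1, Fdft1, Sqle, Lss, Nsdhl and Dhcr7 were the other lower genes, from −0.94 to −0.61. Srebf2 stood at 176 CPM in KO and 204 CPM in WT (−0.21 [−0.51, 0.09]). Median depths were alike, at 13292 UMIs in KO and 13407 UMIs in WT. Cell cycle genes summed to 21.2 CPM in KO (4 of 6, Cdk1 and Ccna2 at 0) and 14.0 CPM in WT (3 of 6, Cdk1, Ccnb1 and Ccna2 at 0). The higher member, Plin2, had 43 UMIs in KO and 15 UMIs in WT; its ratio of 1.12 turned to −0.13 when cells were grouped by clustering and to −0.24 when cells with markers of 2 lineages were kept.

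**Figure D3:**
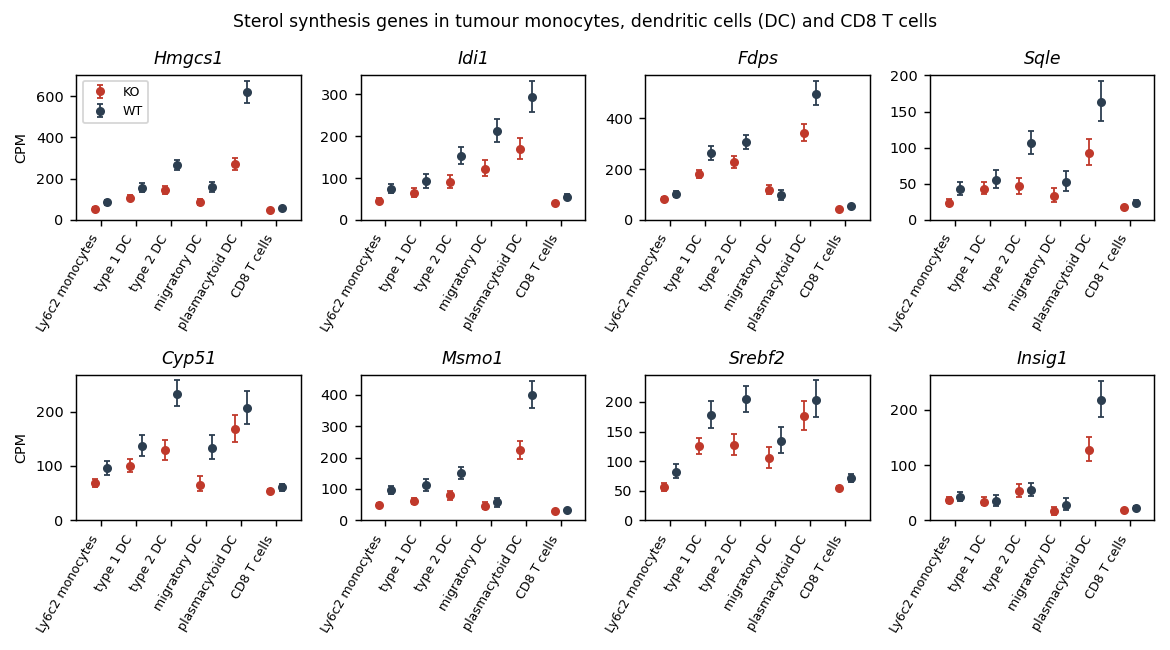
Levels of 8 sterol synthesis genes in tumour Ly6c2 monocytes, dendritic cells (DC) and CD8 T cells, as CPM on linear axes that start at 0, KO (red, left) beside WT (dark, right) with exact Poisson 95% intervals. Hmgcs1 is lower in KO in each class drawn and highest in plasmacytoid cells, at 270 CPM in KO and 618 CPM in WT.

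Other genes of lipid metabolism, a list of 40, were set beside the members. In tumour phagocytes 39 were measured, 1 was higher (Lipe) and 7 were lower, against 9.65% and 10.7% of all genes, with a median of 0.00. Those at least 2-fold apart were Hilpda, an inhibitor of droplet lipolysis induced by low oxygen, at 151.5 CPM in KO and 470.0 CPM in WT (−1.63), the scavenger receptor gene Olr1 (−1.30) and Fabp3 (−1.41). In Ly6c2 monocytes 3 of 32 were higher and 4 lower, against 6.12% and 4.81% of all genes. Spleen Ly6c2 monocytes had 2 of 35 higher and 1 lower, against 3.51% and 2.94% of all genes. Tumour dendritic cells had 1 of 31 higher and 8 lower, against 5.89% and 5.54% of all genes, and plasmacytoid cells 0 of 22 higher and 7 lower, against 7.37% and 5.45%. Among the lower genes of both were Acat2, Tm7sf2 and Fads2, further genes of sterol synthesis and fatty acid desaturation. These 3 and Lipe were picked for mention after their values were seen.

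Over all tumour T cells 0 of 24 measured members were called in either direction, against 4.92% higher and 5.65% lower of all genes. CD8 T cells, with 1291 KO and 447 WT cells, had 1 of 24 measured members higher (Gpnmb, 94 UMIs in KO and 18 UMIs in WT) and 1 lower (Mvd, −0.68), against 5.27% and 5.26% of all genes. A single KO cell held 36 of the 94 Gpnmb UMIs, and without the richest cell of each library Gpnmb stood at 2.96 CPM in KO and 2.77 CPM in WT (0.09). Their sterol median was nonetheless −0.31, beside a median of −0.03 over all genes. Regulatory T cells had 1 of 16 higher and 4 lower, against 5.51% and 7.75% of all genes, among them Sqle at 20.6 CPM in KO and 48.7 CPM in WT (−1.24 [−1.89, −0.59]). In other CD4 T cells, 141 in KO and 70 in WT, 5 of 10 members were higher and 2 lower, against 19.3% and 9.91% of all genes. The 4 higher sterol genes there were Idi1, Fdps, Cyp51 and Ebp, with 7 to 20 UMIs each in WT, so depth limits that reading. NK cells had 2 of 18 higher and 2 lower, against 6.23% and 9.05% of all genes. B cells had 0 of 7 called in either direction, against 6.29% and 12.5% of all genes, and were the tumour class in which Scd1 was measured, at 341 CPM in KO and 307 CPM in WT (0.15).

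Tumour neutrophils held Plin2 at the highest level of any tumour class, with 1415 CPM in KO and 2069 CPM in WT (−0.55), which lay just under the call. Of 12 measured members, 2 were higher and 4 lower, while 28.1% and 12.7% of all genes were called, so the share of higher members was under that of all genes. Srebf2 stood at 56.4 CPM in KO and 99.3 CPM in WT (−0.82 [−1.43, −0.26]) and Abcg1 at 171 CPM in KO and 109 CPM in WT (0.65 [0.29, 1.00]). The KO library held 126 such cells and the WT library 885.

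**Figure D4:**
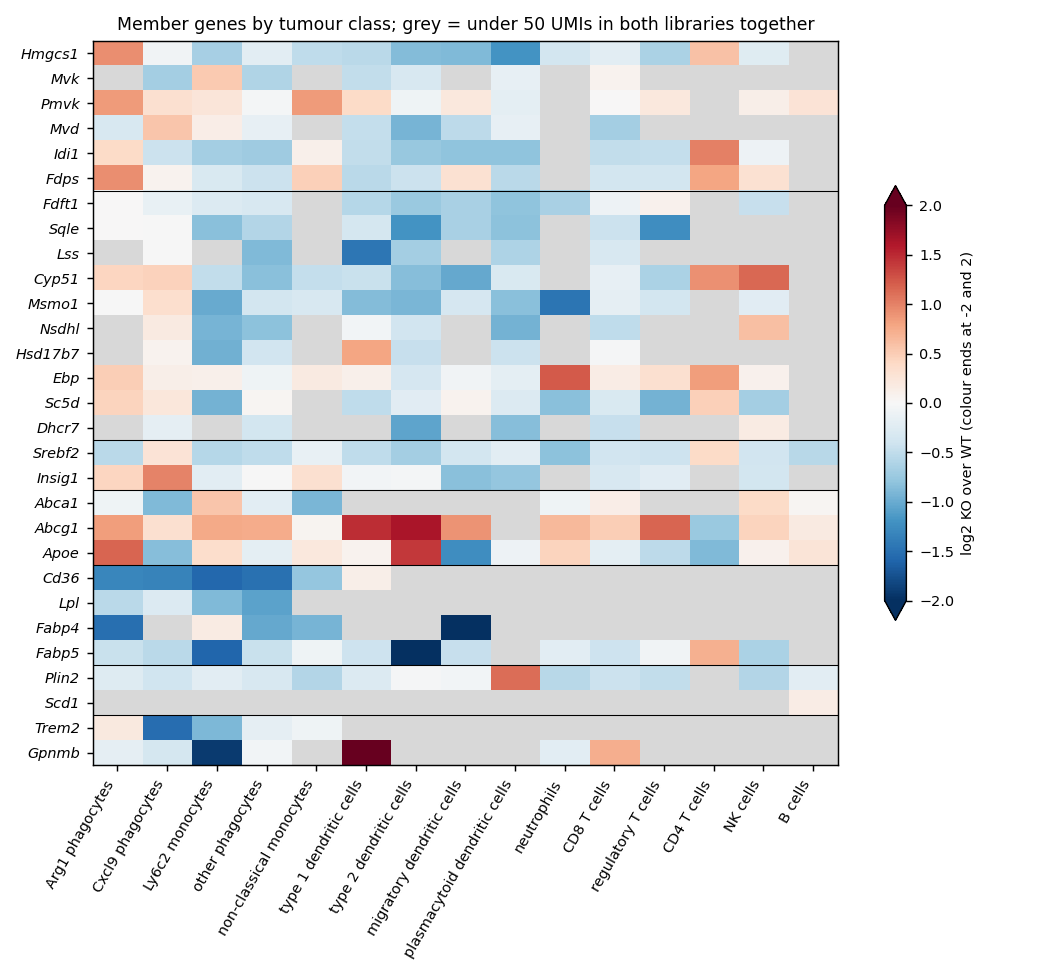
Log2 KO over WT of each member (rows, by role) in 15 tumour classes (columns), red for higher in KO and blue for lower, with colour ends at −2 and 2 and grey where both libraries together held under 50 UMIs. The Sqle row is blue in 9 of 10 measured classes and the Msmo1 row in 12 of 13, the Cd36 row is blue in the 5 phagocyte subsets, and the Abcg1 row is red in 13 of 14 measured classes.

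Across the 15 tumour classes compared, Abcg1 was measured in 14, was called higher in 8 and lower in 1 (CD4 T cells), and lay above 0 in 13. Cd36 was measured in 6 classes and called lower in 5, the exception being type 1 dendritic cells at 75.8 CPM in KO and 69.9 CPM in WT (0.12 [−0.24, 0.48]). Srebf2 was measured in all 15 and lay below 0 in 13, but was called lower in 2. Sqle was called lower in 6 of 10 and Msmo1 in 5 of 13. Pmvk, by contrast, lay above 0 in 10 of 13, with 2 called higher. These classes come from the same pair of libraries and are not independent.

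Over all spleen phagocytes the sterol median was 0.01, and 1 of 29 members was higher (Scd1, on 38 UMIs in KO and 48 UMIs in WT) and 4 were lower (Hsd17b7, Cd36, Fabp4 and Gpnmb), against 4.53% and 2.22% of all genes. Apoe stood there at 1163 CPM in KO and 781 CPM in WT (0.57), just under the call. Among subsets, Ly6c2 monocytes, with 604 KO and 1049 WT cells, had 2 of 26 measured members higher and 4 lower, against 3.51% and 2.94% of all genes, and a sterol median of −0.02. Apoe stood at 792 CPM in KO and 427 CPM in WT (0.89 [0.84, 0.94]). Idi1 stood at 19.3 CPM in KO and 12.2 CPM in WT (0.66 [0.33, 0.99]), the opposite direction to the tumour monocytes. Msmo1, lower in the KO tumour monocytes, stood at 36.7 CPM in KO and 30.5 CPM in WT (0.27 [0.04, 0.49]) in the spleen. Cd36 stood at 9.10 CPM in KO and 14.8 CPM in WT (−0.70 [−1.13, −0.29]), and Fabp4 at 2.85 CPM in KO and 11.2 CPM in WT (−1.97 [−2.72, −1.30]). Gpnmb (−1.44) and Mvk (−0.63) were the other lower members. Cell cycle genes summed to 241 CPM in KO and 59.8 CPM in WT monocytes of the spleen (6 of 6 in each), and their part was not tested.

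Cd36 lay below 0 in the 7 of 11 spleen classes where it was measured and was called lower in 4, and Fabp4 was called lower in 4 of 5. By sign alone, Insig1 also lay below 0 in 7 of 7 classes, with 0 calls, and Sc5d in 8 of 9, with 2 calls. In red pulp macrophages, the phagocytes that clear old red cells, Cd36 stood at 79.4 CPM in KO and 147 CPM in WT (−0.89 [−1.46, −0.33]) and Fabp4 at 37.1 CPM in KO and 117 CPM in WT (−1.65); these 2 were the lower members of 11 and none was higher, against 6.7% and 7.21% of all genes. Non-classical monocytes had 1 of 24 members higher (Cyp51, 0.70) and 1 lower (Lpl, at 13.6 CPM in KO and 34.5 CPM in WT), against 2.15% and 3.73% of all genes. Spleen phagocytes of no named subset had 1 higher and 5 lower of 21, against 3.24% and 4.93% of all genes, with Cd36 at 25.5 CPM in KO and 63.5 CPM in WT (−1.32).

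Spleen dendritic cells had 0 of 22 members and NK cells 0 of 20 past 1.5-fold in either direction, where 3.38% and 3.7% of all genes of the dendritic cells, and 1.86% and 2.89% of those of the NK cells, were called higher and lower. T cells had 3 of 5 higher (Hmgcs1, Ebp and Apoe) with 12 to 14 UMIs each in WT, against 5.44% of all genes, and none lower, against 5.65%. A single KO cell held 33 of the 71 KO UMIs of Apoe. B cells had 2 of 12 lower (Idi1 and Sc5d) and none higher, against 5.0% and 3.57% of all genes. Spleen neutrophils had 6 of 20 higher and 4 lower, against 21.1% and 15.7% of all genes. The higher ones were synthesis genes, with Idi1 at 14.1 CPM in KO and 3.06 CPM in WT. The libraries differed in the age of these cells, since immature neutrophils numbered 422 in KO and 59 in WT, and markers of immature neutrophils summed to 57620 CPM in KO and 9914 CPM in WT. Within mature neutrophils no measured synthesis gene was past 1.5-fold. Genes under 50 UMIs there, Hsd17b7 among them, could not be called. Of 14 measured members, 1 was higher (Abca1, at 29.7 CPM in KO and 16.9 CPM in WT). The lower ones were 2 (Cd36 and Fabp4), and 2.61% and 6.02% of all genes were called higher and lower. Within immature neutrophils 1 of 14 was lower (Fabp5, −1.42) and none higher, against 8.87% and 7.05% of all genes.

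Set against the spleen of the same genotype, tumour Ly6c2 monocytes held more of most members in both genotypes. In KO, 17 of 26 measured members were higher in the tumour and 0 lower, against 11.3% and 35.5% of all genes, and in WT 22 of 28 were higher and 0 lower, against 11.8% and 37.8%. The median of all genes lay at −0.33 in KO and −0.36 in WT, so these ratios are read against a shifted scale. The sterol median was 0.62 in KO and 1.20 in WT, and the handling median 1.89 in KO and 2.18 in WT. The organs were sorted with different gates, and each genotype's libraries also enter the comparison of KO with WT.

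Gpnmb had the largest ratio, with 36.3 CPM in the tumour and 1.57 CPM in the spleen of KO mice (4.54), and 136 CPM in the tumour and 4.24 CPM in the spleen of WT mice (5.01). Few tumour monocytes carried it, since the 5% of cells richest in it held 92.9% of its UMIs in KO and 75.5% in WT. Fabp5 stood at 338 CPM in the tumour and 48.2 CPM in the spleen of KO mice (2.81), and at 1021 CPM in the tumour and 32.3 CPM in the spleen of WT mice (4.98). Plin2 differed by similar amounts in both genotypes, 1.93 in KO and 2.12 in WT. Among synthesis genes, Sqle stood at 24.1 CPM in the tumour and 6.54 CPM in the spleen of KO mice (1.88), and at 43.1 CPM in the tumour and 4.64 CPM in the spleen of WT mice (3.21). Msmo1 stood at 47.5 CPM in the tumour and 36.7 CPM in the spleen of KO mice (0.37), and at 95.4 CPM in the tumour and 30.5 CPM in the spleen of WT mice (1.64). Hmgcs1 showed the same pattern, with 0.34 in KO and 1.23 in WT. Abcg1 was close to even in KO (0.16) and lower in the WT tumour without a call (−0.46).

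**Figure D5:**
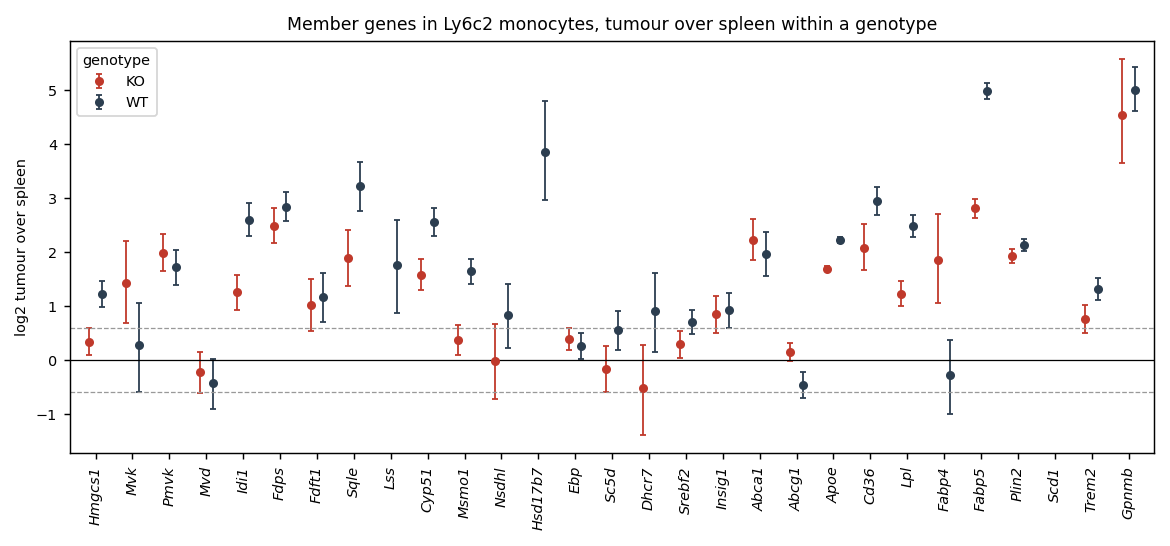
Log2 tumour over spleen of each member in Ly6c2 monocytes, KO (red, left) beside WT (dark, right), with exact 95% intervals, a line at 0 and dashed lines at 1.5-fold; members under 50 UMIs are not drawn. Idi1, Fdps, Sqle, Cyp51, Cd36, Fabp5, Plin2 and Gpnmb lie past 1.5-fold in both genotypes, and Hmgcs1 (0.34 in KO, 1.23 in WT) and Msmo1 (0.37 in KO, 1.64 in WT) lie lower in KO.

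Dendritic cells were also higher in the tumour for many members. In KO, 10 of 24 measured members were higher in the tumour and 2 lower, against 13.5% and 36.2% of all genes, and in WT 18 of 25 were higher and 1 lower, against 10.3% and 37.2%. The sterol median was 0.40 in KO and 1.07 in WT. Abcg1 was lower in the tumour in both, at 57.5 CPM in the tumour and 101 CPM in the spleen of KO mice and at 25.0 CPM in the tumour and 82.0 CPM in the spleen of WT mice. In neutrophils Plin2 stood at 1415 CPM in the tumour and 68.5 CPM in the spleen of KO mice (4.37), and at 2069 CPM in the tumour and 49.2 CPM in the spleen of WT mice (5.39). B cells ran the other way for Scd1, with 341 CPM in the tumour and 691 CPM in the spleen of KO mice (−1.02), and 307 CPM in the tumour and 608 CPM in the spleen of WT mice (−0.99). NK cells held less Abca1 in the tumour, at 15.4 CPM against 54.2 CPM in the spleen of KO mice (−1.82) and 11.9 CPM against 52.0 CPM in the spleen of WT mice (−2.13).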

How the data were processed

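The deposited files are count matrices of UMIs, not normalized, made by the authors with Cell Ranger (3.1 and Seurat 3.1 and 3.1.4 per the submitters' processing notes, with builds mm10 and GRCm38; 6.0.0 per the file headers). From these counts, a cell was kept if it held 200 genes and 500 UMIs or more, no more than 10% of them mitochondrial. A cell took the lineage with the highest share of its listed markers detected, if that share was at least 0.3 and led by 0.1. No doublet caller was run; cells that also showed at least 0.5 of the markers of a second lineage were left out, a rule added after the data were seen. Phagocyte subsets needed 3 UMIs of their gating gene, T cell subsets 1. Classes under 50 cells in either library were not compared. UMIs were summed per class and library and scaled to CPM. With 1 pooled library per group there was no test; intervals are exact (Poisson for a level, conditional binomial for a ratio, binomial for a share), at 95%, and cover counting error only. A gene was measured at 50 UMIs over both libraries and called at 1.5-fold; a level of 0 was set to 3 counts for a bound. The text names all 29 members and, of the 40 other lipid genes, those at least 2-fold apart in tumour phagocytes; Lipe, Acat2, Tm7sf2 and Fads2 are named besides, picked after their values were seen. Members, lists and markers were chosen with earlier results of these data known. The fold calculation was tested on simulated data. Python 3.11.15, numpy 2.4.6, scipy 1.17.1, pandas 2.3.3, leidenalg 0.10.2 and matplotlib 3.10.9 were used.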

Additional observations from a re-analysis of the deposited data

Results flagged for a closer look

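In 4 cases a member was past 1.5-fold in opposite directions in the tumour and in the spleen; the difference between organs was not tested in any of them. Idi1 in Ly6c2 monocytes had a log2 KO over WT ratio of −0.68 in the tumour and 0.66 in the spleen, a difference of −1.34. In neutrophils, Msmo1 stood at −1.46 in the tumour and 0.78 in the spleen (a difference of −2.24), Fdft1 at −0.65 in the tumour and 1.32 in the spleen (−1.97), and Srebf2 at −0.82 in the tumour and 0.94 in the spleen (−1.76). The neutrophil values rest on 7, 5 and 28 UMIs of these 3 genes in the KO tumour. Immature neutrophil markers summed to 57620 CPM in KO and 9914 CPM in WT spleen neutrophils and cell cycle genes to 679 CPM in KO and 144 CPM in WT. Within mature spleen neutrophils no synthesis gene that held at least 50 UMIs was past 1.5-fold, and those under it could not be called.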

How the results depend on the processing

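No paired analysis was possible because each group is 1 pooled library and no test was made. Where a value was left, most calls were kept. After thinning to 1000 UMIs, 37 of 140 calls still had a value, and 31 of these were kept. Of the 140 calls, 140 were kept when ratios were centred on the median of all genes, 139 with a mitochondrial limit of 20%, and 127 with equal weight per cell; 72 of 82 were kept with Leiden clusters. With KO subsets weighted to the WT mix, the handling median in tumour phagocytes was −0.49, the sterol median −0.10, and 4 of 10 calls were kept. The handling median there was −1.04 without cells holding a melanoma marker UMI, −1.07 with equal weight per cell, −1.05 with cells thinned to 1000 UMIs, and −0.97 without cells holding a neutrophil, T, NK or B cell marker UMI, where the sterol median was 0.67 and 7 members were higher. The share of all genes called was not worked out under these alternative settings. Higher members in tumour phagocytes numbered 2 with a gate lead of 0.2 and 3 after thinning. The Ly6c2 handling median was −0.88 with a minimum of 200 UMIs and also with the richest cell of each gene left out, an alternative chosen after seeing the data. Without those cells, and with no minimum, 125 of 130 calls between genotypes in the tumour and 38 of 40 in the spleen were kept. Some kept calls then rested on under 50 UMIs. An example is Gpnmb in type 1 dendritic cells, with 3 UMIs in KO and 1 UMI in WT. The 7 lost were Mvk in Cxcl9 phagocytes (−0.57), Gpnmb in dendritic cells (−0.14) and CD8 T cells (0.09), Apoe in type 2 dendritic cells (−0.44) and spleen T cells (0.51), Hmgcs1 in regulatory T cells (−0.54) and Sc5d in spleen B cells (−0.58).

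Counts summed over classes moved with depth and with the minimum. In the main setting they were 14 higher and 34 lower in the other tumour classes, 12 and 13 in the spleen, and 108 and 35 between organs. Thinning to 1000 UMIs left 1 higher and 8 lower in the other tumour classes, 6 and 5 in the spleen, and 32 and 15 between organs. A minimum of 200 UMIs left 2 higher and 16 lower in the other tumour classes, 5 and 4 in the spleen, and 65 and 15 between organs. A minimum of 20 UMIs gave 23 higher in the other tumour classes, 23 higher and 20 lower in the spleen, and 54 lower between organs, and centring gave 22 lower between organs. Among values that still met the UMI minimum, the direction turned in 4 cases. Plin2 in plasmacytoid cells turned to −0.13 with Leiden clusters. With cells of 2 lineages kept, an alternative chosen after seeing the data, it turned to −0.24. Gpnmb in dendritic cells turned with equal weight per cell (−0.0195), and Srebf2 in WT Ly6c2 monocytes, tumour over spleen, after thinning (−0.53). Without the richest cells and with no minimum, Gpnmb in dendritic cells (−0.14) and Apoe in type 2 dendritic cells (−0.44) also turned. The cause was not tested. Depth limits the small classes, where few UMIs stand behind a call.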

Other observations

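Phagocytes gated on Ccl8 or Vcam1 could not be compared between genotypes, with 26 KO and 113 WT tumour cells. In WT they held the highest tumour level of 4 handling genes, with Apoe at 18530 CPM, Trem2 at 843 CPM, Gpnmb at 371 CPM and Abca1 at 255 CPM. In KO, where that subset was too small to rank, Arg1 phagocytes held the highest level of 4 handling genes. Gpnmb and Ndufa4 both lie on chromosome 6, Gpnmb from 49036546 to 49070929 (GRCm38).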
